A study of Mus musculus with 68 samples.

Results

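The genes followed here across mouse lung septa and vessels remove reactive oxygen or bind metals: the superoxide dismutases Sod1, Sod2 and Sod3, catalase (Cat), the glutathione peroxidases Gpx1 and Gpx3, the peroxiredoxins Prdx1 and Prdx6, and the metallothioneins Mt1 and Mt2. They were chosen by gene symbol, 10 of the 24306 gene names on the array, and each was read by its brightest probe, the one with the highest mean over all 68 arrays. The list itself was selected on earlier results of these arrays, among them the higher Sod2 signal in vessels of smoke-exposed wild-type mice, so that difference, and the other Sod2 differences from the same wild-type room-air vessel arrays, are given here as a description with no test.

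Septa and vessels were laser-microdissected from lungs and hybridised on 1-colour Agilent arrays, 34 arrays per compartment. In each compartment, wild-type (Wt) mice breathed room air (5 arrays) or cigarette smoke (5 arrays) for 3 months, and mice whose samples are labelled as Fgf10 knock-down, described in the treatment text as Fgf10+/-, breathed room air (4 arrays) or smoke (5 arrays) for the same time. The 3 further groups, of 5 arrays each, had 8 months of exposure followed by 1 week of treatment with or without doxycycline: a room-air control, a smoke control and a smoke group with Fgf10 overexpression. The transgene that drives overexpression, the strain, age and sex of the mice, and whether an array holds 1 or several animals are given by no label. The growth text states 3 months for all samples, and the 8 months used here come from the titles and the treatment text. The design text calls the 4 or 5 arrays of a group biological replicates.

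Superoxide dismutases turn superoxide into hydrogen peroxide and oxygen: Sod1 works in the cytosol, Sod2 in mitochondria, and Sod3 is secreted and binds to the extracellular matrix, where it is abundant in lung and in vessel walls. Catalase, glutathione peroxidases and peroxiredoxins then break the peroxide down, catalase in peroxisomes, Gpx1 and Prdx1 inside cells, Gpx3 as a secreted enzyme and Prdx6 as an enzyme of alveolar epithelium that also acts on surfactant phospholipids. Metallothioneins are small cysteine-rich proteins that bind zinc, copper and cadmium, a metal of tobacco smoke, and their transcription is switched on by the zinc-sensing factor Mtf1 through metal response elements in their promoters.

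The promoters of Mt1 and Mt2 are shown because these neighbouring genes carry the largest septa differences after 8 months of smoke below. The windows reach from 250 bases before to 50 bases after the annotated start (RefSeq, GRCm38.p6), and capitals mark the core of the metal response element, searched as TGCGCNC or TGCACNC on both strands. Mt1 lies at chr8:94178839-94179138 and Mt2 at chr8:94172368-94172667, both on the plus strand.
Mt1: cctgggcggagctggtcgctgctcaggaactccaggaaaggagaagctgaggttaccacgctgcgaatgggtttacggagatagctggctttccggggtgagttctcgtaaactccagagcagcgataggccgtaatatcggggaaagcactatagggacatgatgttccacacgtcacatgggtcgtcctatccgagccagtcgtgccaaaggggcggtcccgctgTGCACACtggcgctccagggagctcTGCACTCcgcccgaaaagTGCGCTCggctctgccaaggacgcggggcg
Mt2: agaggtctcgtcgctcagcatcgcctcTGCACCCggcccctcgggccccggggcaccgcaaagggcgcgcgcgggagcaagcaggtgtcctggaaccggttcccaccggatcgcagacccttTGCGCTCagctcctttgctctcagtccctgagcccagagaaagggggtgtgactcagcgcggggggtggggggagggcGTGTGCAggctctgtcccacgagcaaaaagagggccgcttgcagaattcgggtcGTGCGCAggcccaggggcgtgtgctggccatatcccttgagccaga

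The core occurred 3 times in the Mt1 window and 4 times in the Mt2 window, and 0 times in the windows of the 6 other members with an entry, Sod1, Sod2, Cat, Gpx1, Gpx3 and Prdx1. Of 32851 mouse promoters of the same length, 25.7% held at least 1 core and 1.97% held 3 or more. The core of the antioxidant response element, TGACNNNGC on either strand, occurred once each in the windows of Sod1, Prdx1 and Mt2 and in 12.4% of all promoters. A match describes letters in the window and is not a measured binding site.

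The 10 genes gave signal on nearly all arrays. Their probes were above the 40th percentile of the array, a log2 intensity of about 5.32, on 65 to 68 of 68 arrays, and all 10 were tested in every comparison. Gpx1 had a mean of 15.11, close to the highest value on the arrays (15.98), which limits how far a rise could show. The same limit holds in septa for Sod1 and Gpx3, which read up to 15.48 and 15.72 there.

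Some arrays stood apart before any comparison. The septa arrays 1 and 5 of the smoke-exposed knock-down group and vessel array 5 of that group had median correlations of 0.287, 0.006 and 0.469 with the other arrays of their compartment, against 0.745 to 0.947 for the other septa arrays and 0.709 to 0.895 for the other vessel arrays, and results are given with and without these 3 low-correlation arrays. Of the 34 septa arrays, 11 come first in the deposited order, 1 of them a low-correlation array; the other 10 differed from the 22 later ones without low correlation in 1606 of 20161 genes (7.97%), a split that no label names and that was found after seeing the data. Those 11 arrays held 3 of 5 room-air controls of 8 months and 0 of 5 smoke controls of 8 months. The targeted gene, Fgf10, had a septa level of 8.36 ± 0.60 (SD, n = 4) in room-air mice of the knock-down group and 7.71 ± 0.58 (SD, n = 5) in their wild-type counterparts, and of 5.82 ± 2.21 and 8.50 ± 1.29 (SD, n = 5) under smoke, where the knock-down group holds low-correlation arrays. In vessels it was 5.51 ± 0.85 (SD, n = 4) and 5.24 ± 1.89 (SD, n = 5) in room air. Under smoke the vessel values were 5.51 ± 1.70 and 6.26 ± 1.66 (SD, n = 5), where the knock-down group holds 1 low-correlation array. The means of 5.24 and 5.51 lie near the 40th percentile of the array, about 5.32, which limits how far a fall could show. In the overexpression group Fgf10 was 8.21 ± 0.91 in septa and 5.47 ± 1.60 in vessels (SD, n = 5), against 9.01 ± 1.11 and 7.31 ± 1.08 in the smoke control (SD, n = 5). The probe's place relative to the altered allele is not given.

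**Figure D1:**
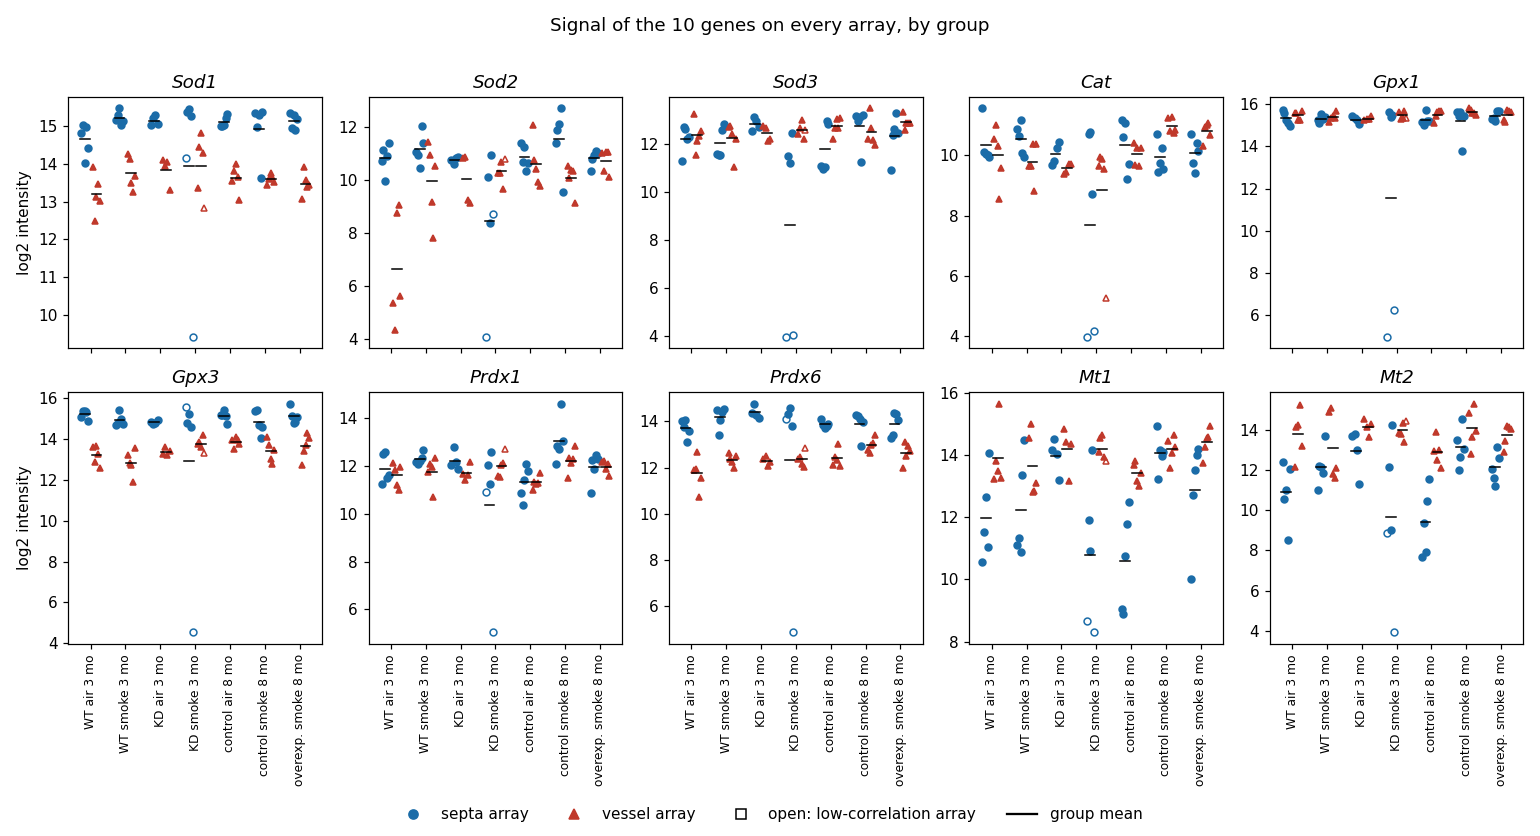
Log2 intensity of the 10 genes (y axis, a scale of its own in each panel) on every array of the 7 conditions (x axis), septa as blue circles and vessels as red triangles, group means as black bars. The open symbols are the 3 low-correlation arrays; Sod1, Gpx3 and Prdx6 lie higher in septa, Mt1 and Mt2 mostly higher in vessels, and 3 of the 5 wild-type room-air vessel arrays hold the low Sod2 values.

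The test of septa against vessels called 6 of the 10 genes. The Sod2 call is a description only, because the wild-type room-air vessel arrays enter it. Sod1, Gpx3, Prdx6 and Sod2 were higher in septa, and Mt1 and Mt2 were higher in vessels (limma, adjusted p under 0.05 over 23877 genes, 34 arrays against 34). The same test called 19.9% of all genes. Fewer cells of a type and less RNA per cell cannot be told apart in such samples, and the labels do not say which septa and vessel arrays share an animal, so the test treats all arrays as independent.

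Sod1 lay between 13.64 and 15.48 on the septa arrays other than the low-correlation ones, and between 12.49 and 14.81 on the vessel arrays. Its fitted difference was 1.24 ± 0.21 log2 units (SE, adjusted p = 6.16e-06), and septa were higher in 7 of 7 conditions, by 1.15 to 1.66 log2 units without the low-correlation arrays. In 6 of the 7 conditions the septa and vessel arrays did not overlap. How many of all genes did so was not counted, so nothing is read from this for Sod1, or for Prdx6 and Gpx3 below. All values by condition in this comparison leave out the low-correlation arrays. For Prdx6 the septa excess was 1.35 ± 0.29 (SE, limma adjusted p = 0.000337), again in 7 of 7 conditions and without overlap in 6. The difference in the second Prdx6 probe, whose signal correlated with the first at r = 0.80 over the 68 arrays, was 0.59 and did not pass (limma adjusted p = 0.21). Gpx3 exceeded its vessel level by 1.26 ± 0.32 (SE, limma adjusted p = 0.00242), in 7 of 7 conditions by 1.01 to 2.07, and without overlap in 6. With place in the deposited order as a covariate, added after seeing the data, and all arrays, the Gpx3 difference was 0.80 and did not pass (limma adjusted p = 0.107). That fit keeps a low-correlation septa array with Gpx3 at 4.54 and counts all vessel arrays as later, so nothing is read from it. Without the low-correlation arrays, septa Gpx3 differed between first and later arrays by 0.27 ± 0.19 (SE, limma adjusted p = 0.475).

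The septa excess of Sod2 was 0.87 ± 0.28 (SE). By condition it ran from -0.40 to 4.21 with the low-correlation arrays left out, and the arrays overlapped in 6 of 7 conditions. The highest difference, and the only condition without overlap, came from the wild-type room-air mice. Their low vessel values were known when the genes were listed, so nothing is read from the Sod2 call. Both metallothioneins went the other way: the fitted septa difference of Mt1 was -1.63 ± 0.29 (SE, limma adjusted p = 1.73e-05), and that of Mt2 was -2.20 ± 0.35 (SE, limma adjusted p = 2.47e-06). They had a lower septa mean in 7 of 7 conditions, Mt1 by -2.82 to -0.12 and Mt2 by -3.48 to -0.93 without the low-correlation arrays. The groups overlapped in 6 of 7 conditions for each. The differences in Sod3 (-0.74), Gpx1 (-0.71), Cat (-0.15) and Prdx1 (0.07) did not pass the test. Without the 3 low-correlation arrays the same 6 genes passed, Sod2 again as a description, beside 33.6% of all genes. With place in the deposited order as a covariate the Mt1 difference was -0.93 (limma adjusted p = 0.0143), and without the low-correlation arrays as well it was -0.56 (limma adjusted p = 0.0428). In that last fit Prdx1 also passed, at 0.60 (limma adjusted p = 0.00165). The covariate marks the first 11 septa arrays and counts all vessel arrays as later. The size of these differences depends on that choice, so nothing is read from them.

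Cell markers differed between the compartments too. Each marker list was read as the log2 of its summed intensities, in which the brightest markers weigh most. Without the low-correlation arrays, this value for smooth muscle markers was 13.47 to 14.68 on septa arrays and 15.93 to 17.81 on vessel arrays. Pulmonary vein cardiomyocyte markers summed to 7.70 to 10.96 in septa and 12.67 to 17.08 in vessels. Airway club cell markers overlapped, at 13.85 to 16.84 and 16.23 to 17.35, as did capillary endothelium markers, at 14.16 to 15.71 and 13.29 to 14.98. Alveolar type 2 markers, 7 of 7 on the array, summed to 16.57 to 17.22 in septa and 16.25 to 17.02 in vessels without the low-correlation arrays, so the vessel samples carried signal of alveolar epithelium. Sftpc, in the alveolar type 2 list, read near the highest value on the arrays (15.98) on most arrays of both compartments, which limits how far that sum could differ. The part of these markers in the differences was not tested.

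**Figure D2:**
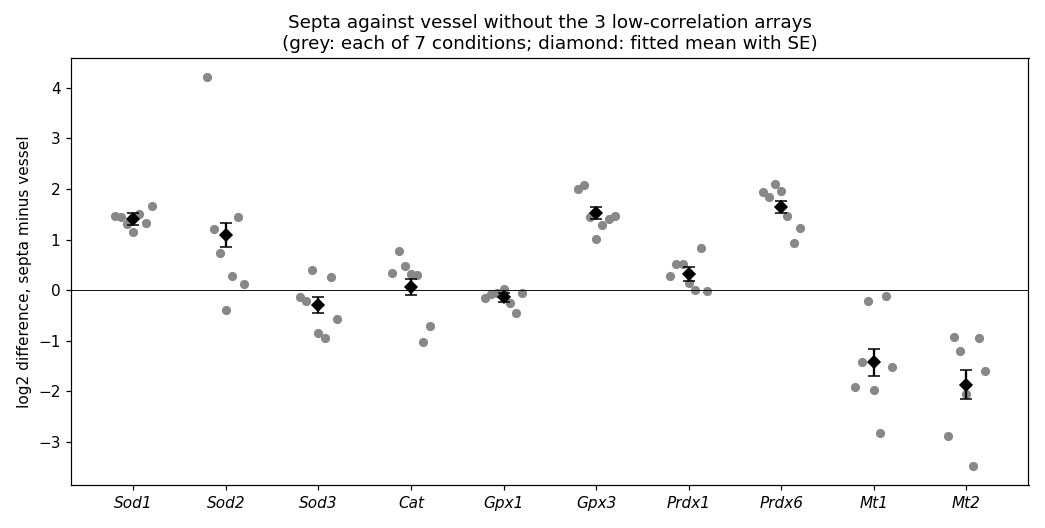
Log2 difference of septa minus vessel (y axis) for each of the 10 genes (x axis) without the 3 low-correlation arrays. Grey points are the 7 conditions and the diamond with its bar is the fitted mean with SE; Sod1, Gpx3 and Prdx6 are above 0 and Mt1 and Mt2 below 0 in every condition.

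Metallothioneins showed the largest septa differences after 8 months of smoke. Mt1 read 14.93, 13.23, 14.14, 13.96 and 14.10 on the 5 smoke-control septa arrays and 9.05, 8.88, 10.76, 11.77 and 12.48 on the 5 room-air controls. Mt2 read 13.49, 11.97, 12.64, 14.54 and 13.01 after smoke and 7.68, 9.38, 7.90, 10.44 and 11.55 in room air. The groups did not overlap for either gene, which was so for 3.46% of all genes tested.

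The fitted differences were 3.48 ± 0.92 log2 units for Mt1 (SE, limma adjusted p = 0.207) and 3.74 ± 1.08 for Mt2 (SE, limma adjusted p = 0.339). With all arrays, 0 of the 10 members passed the test, beside 0.0232% of all genes, and 3 had an unadjusted p under 0.05. Without the 3 low-correlation arrays, which are in neither group but enter the shared estimate of the spread, Mt1 (adjusted p = 0.0367), Mt2 (adjusted p = 0.0257) and Prdx1 (adjusted p = 0.0389) passed at the same differences, beside 0.754% of all genes.

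Place in the deposited order moved with this comparison. With it as a covariate and without the low-correlation arrays, the differences were 1.87 ± 0.52 for Mt1, 3.05 ± 0.85 for Mt2 and 1.22 ± 0.39 for Prdx1 (SE), with limma adjusted p = 0.216, 0.216 and 0.27, so that none of the 3 passed, beside 0.0694% of all genes. Within the later arrays, the 5 smoke controls exceeded the 2 room-air controls by 1.95 for Mt1 and 2.14 for Mt2. These arrays did not overlap, but how many of all genes did so was not counted. No value can be had within the 11 first arrays, which hold no smoke control.

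Leaving out any single array of the 2 groups left the Mt1 difference at 3.06 to 3.96 and the Mt2 difference at 3.31 to 4.28, none of them passing the test. The second Mt1 probe, weaker than the first (mean 8.74 over the 68 arrays), gave 3.14. Alveolar macrophage markers, 10 of 10 on the array, were summed as above. The log2 of their summed intensities was 15.49 to 17.35 on the smoke-control septa arrays and 14.42 to 15.38 on the room-air controls. The part of these markers in the metallothionein difference was not tested.

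In vessels, 8 months of smoke gave smaller metallothionein differences of 0.78 ± 0.45 for Mt1 and 1.21 ± 0.62 for Mt2 (SE), and the groups overlapped. None of the 10 genes passed in vessels, where limma called 0% of all genes and 1 member, Prdx1, had an unadjusted p under 0.05. The 8-month difference in Mt1 was 2.70 log2 units larger in septa than in vessels (limma adjusted p = 1), which did not pass, and 1.36 with place in the deposited order as a covariate.

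After 3 months the wild-type groups overlapped in septa. Mt1 read 11.12, 11.31, 10.87, 13.36 and 14.47 with smoke and 10.56, 11.53, 12.64, 11.05 and 14.05 in room air, and the ranges lay over each other. The 3-month difference was 0.26 ± 0.92 for Mt1 and 1.26 ± 1.08 for Mt2 (SE). The smoke group holds 3 of the first 11 arrays and the room-air group 1. With the deposited-order covariate and without the low-correlation arrays the 3-month differences were 1.34 ± 0.50 for Mt1 and 1.73 ± 0.81 for Mt2 (SE, limma adjusted p = 0.381 and 0.51), which did not pass. The change of the smoke difference from 3 to 8 months was 3.23 ± 1.30 for Mt1 (SE, limma adjusted p = 0.589). With the deposited-order covariate and without the low-correlation arrays it was 0.53 ± 0.76 (SE, limma adjusted p = 0.815). It passed in neither fit. The covariate was chosen after seeing the values and is spread unevenly over the compared groups, so nothing is read from the smaller value.

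The knock-down mice in room air had septa Mt1 values of 14.15, 14.52, 14.04 and 13.18, of which 2 lay above the highest wild-type array and the others within the wild-type range. The difference from wild type was 2.01 ± 0.98 for Mt1 and 2.03 ± 1.15 for Mt2 (SE, limma adjusted p = 1 for each), and neither passed, in a comparison that called 0% of all genes. In the overexpression group Mt1 read 10.02, 12.69, 13.52, 13.98 and 14.19 in septa, and the lowest value came from an array among the first 11. Against the smoke control the difference was -1.19 ± 0.92 for Mt1 and -1.01 ± 1.08 for Mt2, and against the room-air control 2.29 ± 0.92 and 2.73 ± 1.08 (SE), none passing after adjustment, beside 0% and 0.00465% of all genes. The last of these comparisons differs in both smoke and overexpression, and its Mt1 difference was 1.40 with the deposited-order covariate and 1.22 without the low-correlation arrays as well. Under that last fit the difference from the smoke control was -0.65 for Mt1.

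Mt1 and Mt2 moved together from array to array. Their correlation was r = 0.76 over the 32 septa arrays and r = 0.85 over the 33 vessel arrays other than the low-correlation ones, points that share condition and place in the deposited order, and within groups it was 0.57 and 0.85. The vessel group means lay between 13.41 and 14.40 for Mt1 and between 12.87 and 14.14 for Mt2. In the wild-type smoke vessels Mt2 read 14.86, 15.09, 11.82, 11.59 and 12.09, which split the 5 arrays into 2 high and 3 low. Mt1 split in the same way, at 14.53, 15.00, 12.79, 12.85 and 13.09. The 2 high arrays come before the 3 low ones in the deposited order, and the part of order in this was not tested.

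**Figure D3:**
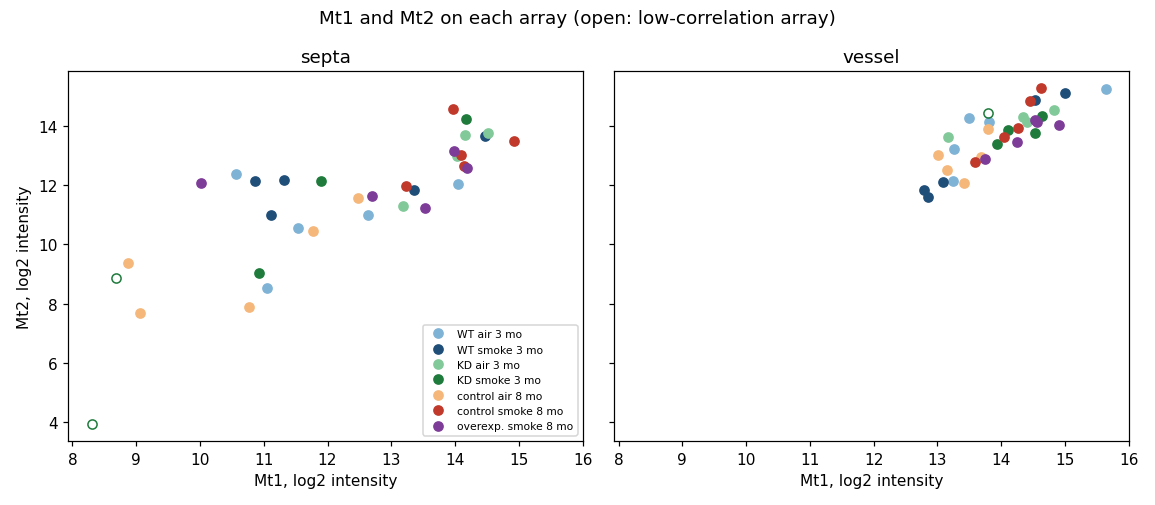
Log2 intensity of Mt1 (x axis) and Mt2 (y axis) on each septa array (left) and vessel array (right), coloured by condition, with low-correlation arrays open. The 5 room-air controls of 8 months lie at or below 12.48 for Mt1 in septa and the 5 smoke controls at or above 13.23.

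Sod3, Cat, Mt1 and Prdx1 in septa differed by place in the deposited order. Sod3 had a median of 11.26 on the 10 first arrays other than the low-correlation one, with a range of 10.92 to 11.60, and a median of 12.71 on the 22 later ones, with a range of 11.25 to 13.31. Cat went the other way, with a median of 10.83 (range 10.63 to 11.56) on the first arrays and 9.95 (range 8.73 to 10.71) on the later ones. The fitted differences, first minus later, were -1.44 ± 0.22 for Sod3, 1.30 ± 0.21 for Cat and -2.69 ± 0.35 for Mt1 (SE), with limma adjusted p = 1.08e-04, 1.36e-04 and 1.28e-05. Prdx1 differed by -0.86 ± 0.26 (limma adjusted p = 0.0362), and the other 6 members did not pass. The split was chosen after seeing the values, so these are descriptions of these arrays, beside 7.97% of all genes.

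**Figure D4:**
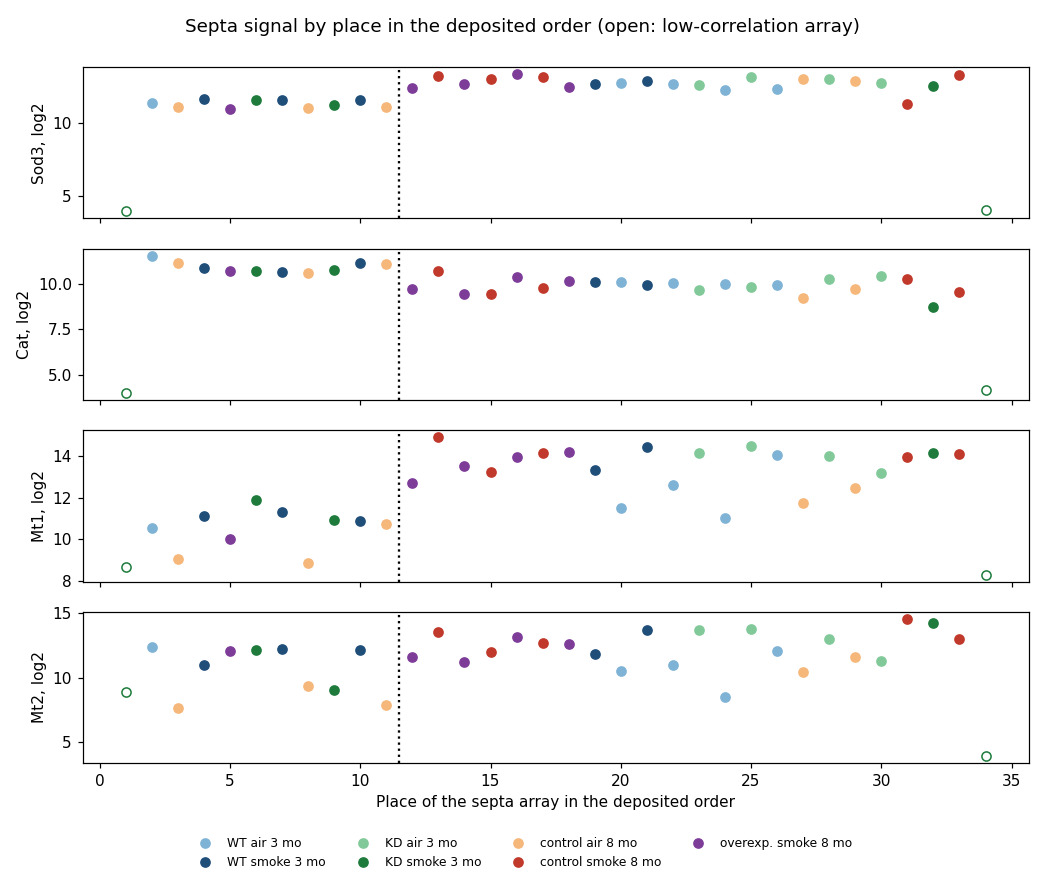
Log2 intensity of Sod3, Cat, Mt1 and Mt2 (y axes) on the 34 septa arrays by place in the deposited order (x axis), coloured by condition, with low-correlation arrays open. The dotted line follows the 11th array; before it Sod3 and Mt1 are low and Cat is high, and there are no smoke controls of 8 months.

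Sod2 in vessels had its lowest mean in the wild-type mice in room air. Those 5 arrays read 5.36, 4.35, 8.76, 9.05 and 5.63, a mean of 6.63 ± 2.13 (SD, n = 5). The values 5.36 and 5.63 were just above the 40th percentile of the array and 4.35 was below it. The 5 wild-type smoke arrays read 11.43, 10.96, 9.17, 7.81 and 10.52, a mean of 9.98 ± 1.47 (SD, n = 5). Smoke-exposed vessels were higher by 3.35 ± 0.71 log2 units (SE), and the lowest smoke array lay below 2 of the room-air arrays. This is the difference known when the genes were listed; 1 of 10 members was called, beside 0.144% of all genes, and nothing is read from that.

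The other vessel groups had Sod2 means close to the wild-type smoke group. The knock-down mice read 10.84, 10.87, 9.23 and 9.15 in room air and 10.27, 10.27, 10.66, 9.66 and 10.80 with smoke. The 8-month room-air controls read 12.08, 10.74, 10.43, 9.91 and 9.79, the smoke controls 10.53, 10.08, 10.38, 10.33 and 9.15, and the overexpression group 11.01, 10.34, 11.07, 11.06 and 10.12. All arrays of these 5 groups read 9.15 or more, and the highest wild-type room-air array read 9.05.

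Comparisons that use the wild-type room-air vessels therefore share those 5 arrays. Knock-down against wild type in room air gave a Sod2 difference of 3.39 ± 0.76 (SE), with no overlap; 1 member was called, beside 0.341% of all genes, and 6.59% of all genes did not overlap. Room-air controls of 8 months against wild-type room air of 3 months gave 3.96 ± 0.71 (SE), with no overlap; 1 member was called, beside 0.88% of all genes, with 3.86% not overlapping, and here exposure time and any difference in mouse line cannot be told apart. Since the low values of these arrays were known when Sod2 was listed, nothing is read from those calls. The smoke effect in knock-down minus that in wild type, which also uses them, was -3.04 ± 1.04 (SE), and leaving out each of the 5 arrays in turn moved it from -2.47 to -3.64. The median correlations of the wild-type room-air vessel arrays ran from 0.709 to 0.823, at the lower end of the vessel arrays.

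In the vessel comparisons that leave those arrays out Sod2 did not pass. The smoke difference was 0.31 in knock-down vessels and -0.50 ± 0.71 (SE) after 8 months, and overexpression differed from the smoke control by 0.63. In septa the group means of Sod2 were 10.76 to 11.53 outside the smoke-exposed knock-down group.

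Sod1 and Sod3 did not pass for smoke in septa of either duration; after 3 months in wild type 0 members passed, beside 0.00465% of all genes. In wild-type septa Sod1 read 15.17, 15.29, 15.48, 15.03 and 15.14 after 3 months of smoke and 14.81, 15.02, 14.03, 14.99 and 14.44 in room air. The groups did not overlap, as for 1.72% of genes, and the difference of 0.56 ± 0.67 (SE, limma adjusted p = 1) did not pass. Without the low-correlation arrays it was 0.56 ± 0.28 (SE, limma adjusted p = 0.511) and did not pass either. After 8 months Sod1 was 15.35, 14.99, 15.31, 13.64 and 15.37 with smoke and 15.00, 15.00, 15.03, 15.23 and 15.33 without, which overlap. Sod3 in septa of 8 months read 13.17, 12.98, 13.13, 11.25 and 13.23 with smoke and 11.09, 10.97, 11.06, 12.99 and 12.84 in room air, where the 3 low values are arrays among the first 11.

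Among the enzymes that remove peroxide, Prdx1 had the widest difference after 8 months of smoke in septa, and Cat in vessels. Prdx1 in septa read 12.08, 12.82, 12.72, 14.60 and 13.05 after 8 months of smoke and 10.87, 10.38, 11.43, 12.08 and 11.80 in room air. The groups met at 12.08, and the difference was 1.74 ± 0.80 (SE, limma adjusted p = 0.635). The 3 other Prdx1 probes gave 0.24, 1.04 and 0.12, smaller than the brightest. Without smoke-control array 4, the highest, the Prdx1 difference was 1.35.

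In vessels Prdx1 read 11.496, 12.33, 12.13, 12.31 and 12.83 after 8 months of smoke and 10.999, 11.32, 11.26, 11.29 and 11.69 in room air, a difference of 0.91 ± 0.34 (SE, limma adjusted p = 1). Cat read 11.23, 10.82, 11.29, 10.74 and 10.83 in smoke-control vessels and 10.43, 9.69, 10.23, 9.67 and 10.24 in room-air vessels. The Cat groups did not overlap, as for 1.15% of genes, and the difference of 0.93 ± 0.59 (SE) did not pass. Without the low-correlation arrays 0 members passed here, and 2 had an unadjusted limma p under 0.05, beside 974 of 21899 genes.

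Gpx1 stayed within a narrow band. Apart from the low-correlation septa arrays and smoke-control septa array 4 of 8 months (13.76), all arrays lay between 14.96 and 15.80, near the top of the scale. Gpx3 was higher in knock-down than in wild-type vessels under smoke by 0.90 ± 0.35 (SE, limma adjusted p = 0.126), where 0 members passed beside 5.39% of all genes. The knock-down vessels read 13.74, 13.87, 13.61, 14.20 and 13.34 and the wild-type vessels 13.21, 12.82, 12.75, 11.92 and 13.57. The only knock-down array below the highest wild-type array, 13.34, is the low-correlation one. Without it the difference was 1.01 ± 0.36 (SE, limma adjusted p = 0.0867). The groups then did not overlap, but how many of all genes did so was not counted. Prdx6 in knock-down septa in room air read 14.37, 14.76, 14.28 and 14.16 against 14.02, 13.74, 14.07, 13.10 and 13.58 in wild type, with no overlap, as for 3.4% of genes, and a difference of 0.69 ± 1.03 (SE) that did not pass. Without the low-correlation arrays 0 members passed in that comparison, and 3 had an unadjusted limma p under 0.05, beside 1352 of 20161 genes.

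In septa of smoke-exposed knock-down mice all 10 genes had lower means than in smoke-exposed wild type, and this rested on the low-correlation arrays. The median difference was -2.25 log2 units (range -3.77 to -1.28), beside -0.16 over all genes, and 1 member passed, Sod2 at -2.74 ± 0.74 (SE, limma adjusted p = 0.0492), beside 3.04% of all genes. Gpx1 read 4.97, 15.65, 15.41, 15.49 and 6.24 on the 5 arrays, and arrays 1 and 5 are the low-correlation ones. Without the 3 low-correlation arrays the median difference was -0.17 (range -1.37 to 0.20), and limma called 0 members and 0% of all genes, with 1 member at an unadjusted p under 0.05. Smoke within the knock-down mice gave a median of -2.34 in septa with all arrays and -0.22 without those 3. The smoke comparison within the knock-down mice called 0 members and 0% of all genes in septa with all arrays. Without the 3 arrays the knock-down difference of Sod2 was -1.37 (limma adjusted p = 0.998).

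**Figure D5:**
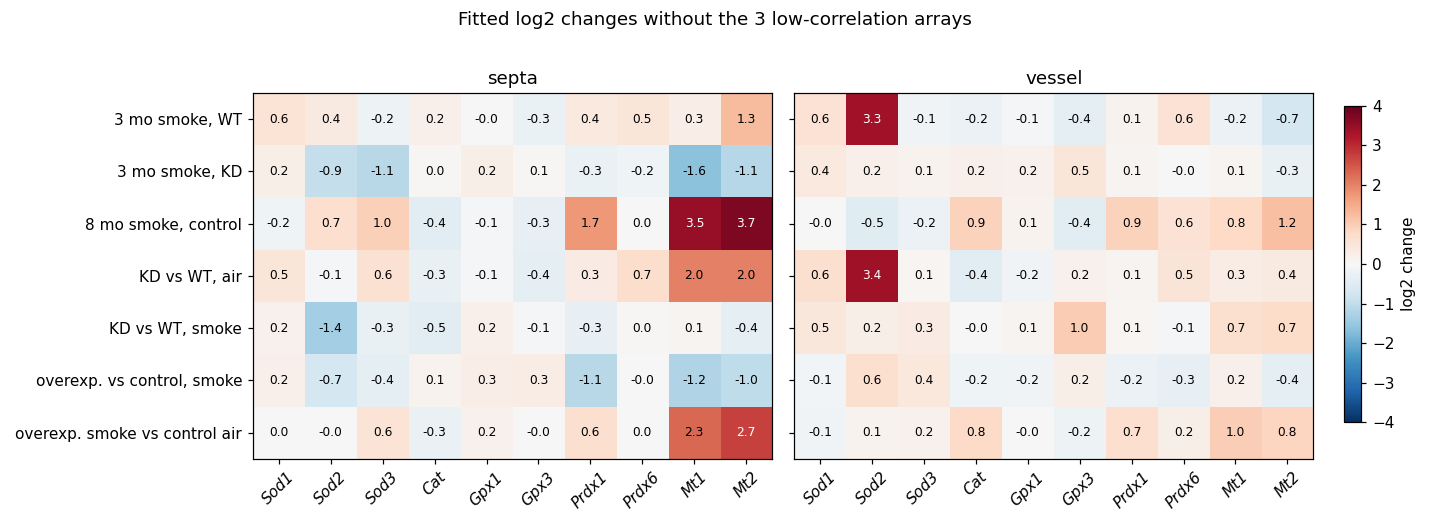
Fitted log2 differences of the 10 genes (columns) in 7 comparisons (rows), septa left and vessel right, without the 3 low-correlation arrays; red is higher and blue lower in the first-named group. The largest are Mt1 and Mt2 after 8 months of smoke in septa (3.48 and 3.74) and Sod2 in the vessel comparisons that use the wild-type room-air arrays (3.35 and 3.39).

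The 4 lists of related genes, chosen with earlier results known, showed few calls. Of 8 other peroxide enzymes, 12 genes of thioredoxin and glutathione supply, 10 tested superoxide sources and 12 metal-handling genes, 0 passed for 8 months of smoke in septa. Their median differences there were 0.59, 0.48, 0.51 and -0.22, beside 0.05 over all genes. In vessels after 3 months of smoke in wild type 0 of these genes passed. The metal-sensing factor Mtf1 and the zinc exporter Slc30a1 are in the metal-handling list and passed in no comparison.

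More list members differed between compartments, where 19.9% of all genes were called. Gss and Gsr, which make and regenerate glutathione, were higher in septa by 1.21 and 1.43, and the copper pump Atp7a by 1.22 (limma adjusted p = 1.15e-05, 0.000847 and 0.000376). The mitochondrial Prdx3 and Prdx5 differed by -0.86 and -0.89, the superoxide source Duox2 by -0.91 and the copper chaperone Atox1 by -0.93, all lower in septa; without the low-correlation arrays Prdx3 did not pass (-0.55, limma adjusted p = 0.0961). In the vessel comparison of 8-month with 3-month room air, where Sod2 was called, Glrx, a thiol transferase, was higher by 3.52 (limma adjusted p = 0.0366) and Cybb, the catalytic subunit of the phagocyte oxidase, was higher by 3.55 (limma adjusted p = 0.0406). These 2 share the wild-type room-air arrays with Sod2. In the smoke-exposed knock-down comparison, Ccs, the chaperone that loads copper into Sod1, was higher by 2.71 in vessels (limma adjusted p = 0.0463), beside 5.39% of all genes, and, with that group's low-correlation array left out, by 2.12 (limma adjusted p = 0.114). In septa Txn1, Gsr and Hmox1 differed by -4.31, -3.74 and -3.62 (limma adjusted p = 0.0492 for each), beside 3.04% of all genes. Without the low-correlation arrays the differences were -0.30, -0.68 and -0.59 (limma adjusted p = 0.998 for each), and 0% of all genes were called.

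Likeness to other genes was measured as the smaller of the septa and vessel Pearson correlations over 17407 genes, as a description over 32 and 33 arrays that share conditions. Mt1 was most like Mt2 (0.76), then Cebpd (0.67) and Ddx24 (0.66), and Mt2 was most like Mt1, then Cebpd (0.68) and Pdhb (0.62). Sod1 was most like Dazap2 (0.73), Prdx1 most like G3bp1 (0.72), Gpx1 most like S100a6 (0.68) and Sod3 most like Ppp4r1 (0.68). Sod2 was most like E2f6 (0.60), Prdx6 most like Slc25a51 (0.60), Cat most like Ywhaq (0.55) and Gpx3 most like Otud1 (0.55). Among the members themselves in septa, Sod3 correlated with Mt1 (r = 0.78) and inversely with Cat (r = -0.68), and Prdx1 correlated with Mt1 (r = 0.69), on arrays that also share the split by deposited order.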

How the data were processed

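The authors deposited log2 intensities of 62976 features on 68 arrays; the submitters' processing notes name limma, with no version and no statement of the background correction. The arrays agree to within 0.00264 at each percentile compared, as quantile-normalised values do. Of the features, 43941 had 1 gene name. A gene was its brightest probe, and genes with missing values (44 values on 5 arrays) were left out. Genes above the 40th percentile on at least 4 arrays were fitted with limma 3.58.1 in R 4.3.3 on all 7 groups of a compartment, or all 14 groups for the compartment contrast, and p-values were adjusted by Benjamini-Hochberg over 21514 septa, 22280 vessel or 23877 genes, with a threshold of 0.05. The fits were tested on simulated data. The 10 genes, all named here, and the lists were chosen with earlier results of these data known. List genes were named where they passed; Mtf1 and Slc30a1, which did not, were named for their roles. p-values measure the spread between the samples of a group, which may be partly technical where samples share animals. The title was used for wild-type smoke septa array 4, whose characteristics say knock-down. Same-numbered samples of different groups had a median r of 0.0127 in septa and -0.0052 in vessels. Of these pairs, 20 of 99 in septa and 11 of 99 in vessels were over 0.1. Among pairs of other numbers, 68 of 396 in septa and 23 of 396 in vessels were over 0.1. Septa and vessel arrays of the same group and number had a median r of 0.0351, with 10 of 34 over 0.1. Those of the same group and other numbers had -0.0115, with 23 of 132 over 0.1. Numbers were not used as pairs, and whether they mark shared animals was not tested. Alternatives are in the closing section. For arrays, their number limits the precision. Sod2 differences from the wild-type room-air vessel arrays are descriptions. Python 3.11.15 read the tables.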

Additional observations from a re-analysis of the deposited data

Results flagged for a closer look

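Of 140 gene and group sets of 4 or 5 arrays, 11 had an array set apart from the others by Dixon's criterion, against about 7 by chance, since chance marks about 1 in 20. Low-correlation septa array 5 of the smoke-exposed knock-down group was the low one for Sod1 (9.42), Gpx3 (4.54), Prdx1 (5.04) and Prdx6 (4.88), and vessel array 5 of that group for Cat (5.25). Smoke-control septa array 4 of 8 months, whose median correlation of 0.745 was the lowest of the remaining septa arrays, was the low one for Sod1 (13.64), Sod3 (11.25), Gpx1 (13.76) and Prdx6 (12.94). Wild-type room-air septa array 1, among the first 11 arrays, was high for Cat at 11.56, and wild-type room-air vessel array 4 was high for Mt1 at 15.64.

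The smoke difference of Sod2 in vessels was -0.50 after 8 months and 3.35 after 3 months in wild type. The change between them was -3.85 log2 units, given as a description because the 3-month difference was known when Sod2 was listed, and the control groups differ in exposure time and treatment.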

How the results depend on the processing

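Of 230 differences of the 10 genes, 10 passed. No passing difference changed sign under any alternative run, 6 lost the call under at least 1, 18 that had not passed did so under at least 1, and 117 differences, 0 of them passing, changed sign under at least 1. For knock-down under smoke in septa, 1 member passed, against 0 without the filter, with the mean of all probes, with arrays centred on their median, with array weights, without the low-correlation arrays, with the deposited-order covariate without them, with the conflicting array as knock-down or with the compared groups alone, and against 2 with the replicate block or the covariate and all arrays. After 8 months of smoke in septa 0 passed, against 3 with array weights or without the low-correlation arrays. Sod2 was the member that passed in wild-type smoke vessels (0 passed with the mean of all probes, centring, the replicate block or the compared groups alone), in knock-down room-air vessels (0 with centring, the block or the compared groups alone) and in 8-month against 3-month room-air vessels (0 with the compared groups alone). For knock-down under smoke in vessels, 1 passed with array weights and 0 otherwise. These counts of Sod2 describe values known when it was listed and are no test. The labels do not say that replicate numbers pair these samples, and besides the counts given the replicate block changed no count of members that passed.

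Leaving out each array in turn gave 0 to 6 members for knock-down under smoke in septa, 0 to 7 for smoke in knock-down septa, and 0 to 1 for their interaction in septa, wild-type smoke vessels and knock-down room-air vessels. It gave 1 to 1 for room air of 8 against 3 months in vessels and 0 to 0 in the other comparisons within a compartment and in the differences between compartments. The highest septa counts came without array 2 or 4 of the smoke-exposed knock-down group. With all arrays, 6177 of 21514 genes had an unadjusted limma p under 0.05 for knock-down under smoke in septa, and 6087 for smoke in knock-down septa. The share of all genes called is not given for the fits with 1 array left out or for most alternatives above. Nothing about the members is read from these counts.

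Depth does not apply to arrays. Gpx1, and in septa Sod1 and Gpx3, sit near the top of the scale, and Sod2 in wild-type room-air vessels sits near its floor. The cause of the changes between settings was not tested.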

Other observations

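The labels do not tie septa arrays to vessel arrays, but the number of arrays with Xist above a log2 intensity of 9.5 was the same in both compartments in all 7 conditions, for example 4 of 5 room-air and 3 of 5 smoke controls of 8 months. By replicate number, 28 of 34 septa and vessel arrays were on the same side of that value. Sex is not given in the labels, and its part in the differences of the 10 genes was not tested.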
